A study of Homo sapiens with 12 samples.

Results

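EGR1, EGR2, EGR3 and EGR4 and the nuclear receptors NR4A1, NR4A2 and NR4A3 were followed through 12 RNA-sequencing libraries of CUTLL1. This is a human line of malignant T-cell precursors, and a rearrangement keeps its NOTCH1 active. These 7 genes were taken by symbol from a table of 62069 Ensembl gene identifiers, and each symbol matched 1 row. The filter used for all tests, a normalised count of at least 10 in at least 3 libraries, kept 6 of the 7 among 19281 genes, and EGR4 was the gene it removed. The genes were chosen by family and selected on earlier results of these data, the differences between GSI and DMSO libraries among them. Their levels and differences are therefore given as a description, without printed p-values. The calls made for them by an adjusted p over all genes are part of that description.

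The cells were grown with solvent (DMSO) or with Compound E at 1 µM. Compound E inhibits gamma-secretase, the protease that frees the active part of NOTCH1, and its libraries carry the label GSI. They were harvested after 12 or 48 h, which gives 4 groups of 3 libraries: DMSO 12 h, GSI 12 h, DMSO 48 h and GSI 48 h. All 12 libraries come from the same line and poly-A selected RNA, and no untreated group is among them. The labels number the libraries 1 to 3 in each group, here written as number 2 of GSI 12 h and the like, without saying whether they were separate cultures, and the spread behind a p-value may therefore be technical. The comparison asks how transcripts change when NOTCH1 signalling is blocked.

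EGR1 to EGR4 are zinc-finger transcription factors that bind GC-rich DNA. NR4A1 (Nur77), NR4A2 (Nurr1) and NR4A3 (NOR1) are orphan nuclear receptors that bind DNA as monomers or dimers and have no established natural ligand. Both families are immediate early genes: their transcription starts without new protein synthesis. In T cells the T-cell receptor switches them on, the EGR genes mainly through RAS, ERK and the serum response factor SRF with its ELK partners, the NR4A genes mainly through calcium, calcineurin, MEF2 and CREB. EGR1 to EGR3 take part in thymocyte selection, EGR2 and EGR3 in anergy, NR4A1 and NR4A3 in thymocyte death, and all 3 NR4A genes in exhaustion of T cells.

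Sequences bound by SRF and CREB can be looked for in the DNA around the annotated starts. Windows of 250 bases before and 50 bases after 8 RefSeq starts (GRCh38.p14) were used for 5 of the 7 genes, namely EGR1, EGR2, EGR4, NR4A1 and NR4A3. EGR3 and NR4A2 are named only, since no window of theirs was among those used, which does not mean that RefSeq lacks their starts. The windows of 5 starts are shown 5′ to 3′ on the gene's own strand, since EGR1 and EGR2 hold both motifs marked there and EGR4, NR4A1 and NR4A3 hold 1 or neither. Capitals mark the CArG box, the sequence bound by SRF, and the core of the cyclic AMP response element (CRE core), TGACG or its reverse complement CGTCA, bound by CREB and ATF1.
EGR1, chr5:138465229-138465528, plus strand: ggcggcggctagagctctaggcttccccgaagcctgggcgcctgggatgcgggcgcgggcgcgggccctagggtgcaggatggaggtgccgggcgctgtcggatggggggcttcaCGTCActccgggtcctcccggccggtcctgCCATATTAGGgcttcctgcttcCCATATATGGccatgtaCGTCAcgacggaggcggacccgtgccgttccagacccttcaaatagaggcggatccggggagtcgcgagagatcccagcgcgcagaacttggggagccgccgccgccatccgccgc
EGR2, start 3 of 3, chr10:62816317-62816616, minus strand: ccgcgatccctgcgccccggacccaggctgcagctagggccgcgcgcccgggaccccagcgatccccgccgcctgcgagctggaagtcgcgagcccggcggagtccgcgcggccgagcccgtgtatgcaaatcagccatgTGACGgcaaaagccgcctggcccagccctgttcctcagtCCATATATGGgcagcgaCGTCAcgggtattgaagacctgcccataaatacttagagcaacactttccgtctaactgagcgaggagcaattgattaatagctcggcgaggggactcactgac
EGR4, chr2:73293499-73293798, minus strand: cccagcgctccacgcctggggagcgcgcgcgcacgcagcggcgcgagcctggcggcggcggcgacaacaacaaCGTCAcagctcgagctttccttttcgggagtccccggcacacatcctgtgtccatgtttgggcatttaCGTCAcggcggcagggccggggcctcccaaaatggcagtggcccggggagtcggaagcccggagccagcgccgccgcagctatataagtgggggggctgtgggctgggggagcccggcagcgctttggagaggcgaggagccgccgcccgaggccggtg
NR4A1, start 2 of 2, chr12:52037465-52037764, plus strand: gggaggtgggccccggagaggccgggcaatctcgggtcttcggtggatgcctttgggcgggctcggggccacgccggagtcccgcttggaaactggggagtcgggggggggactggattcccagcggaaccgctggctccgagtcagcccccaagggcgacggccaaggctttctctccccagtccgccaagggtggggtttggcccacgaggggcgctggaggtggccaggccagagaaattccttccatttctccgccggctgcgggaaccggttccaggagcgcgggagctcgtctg
NR4A3, chr9:99821635-99821934, plus strand: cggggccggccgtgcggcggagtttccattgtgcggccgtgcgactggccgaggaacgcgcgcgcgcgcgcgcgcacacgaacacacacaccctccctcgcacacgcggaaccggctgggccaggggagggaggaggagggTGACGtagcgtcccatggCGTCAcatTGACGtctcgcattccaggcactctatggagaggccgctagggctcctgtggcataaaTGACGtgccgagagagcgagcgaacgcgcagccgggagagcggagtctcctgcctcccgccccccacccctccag

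The EGR1 window held 2 CArG boxes, at -105 to -96 and -83 to -74 from the annotated start, and 2 CRE cores that begin at -135 and -66. The EGR2 window at start 3 held 1 CArG box at -71 to -62 with CRE cores on either side, beginning at -110 and -54, while its starts 1 and 2 held neither motif. A CArG box occurred in 454 of 35116 windows of this length (1.29%), a CRE core in 24.6%, and both together in 96 windows (0.273%). EGR4 had 2 CRE cores, at -177 and -109, and no CArG box. NR4A3 had 4 CRE cores, at -109, -91, -83 and -25, where 1.4% of all windows held at least 3. The 2 windows of NR4A1 held neither motif. Any start of NR4A1 outside these 2 windows was not searched, so the absence holds for the windows and not for the gene.

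The CRE core and CArG box were searched beside 6 other motifs, all on both strands. The EGR site GCGNGGGCG (9.43% of all windows) lay at -198 to -190 in EGR1 and at 9 to 17 after start 2 of EGR2. The ETS core CCGGAA (17.2%) lay at -17 to -12 at start 1 of NR4A1. The sequence TGGGAA (24%), the core recognised by RBPJ, the DNA-binding partner of NOTCH1, lay at -133 to -128 at start 2 of NR4A1 and at -86 to -81 in EGR1, where it overlaps the second CArG box. The full CRE TGACGTCA (1.85%), which contains the CRE core, was not among the 8 windows, nor were the NR4A monomer site AAAGGTCA (1.22%) or the MEF2 motif (2.99%). A match is a string of letters in a window and was not tested as a binding site.

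**Figure D1:**
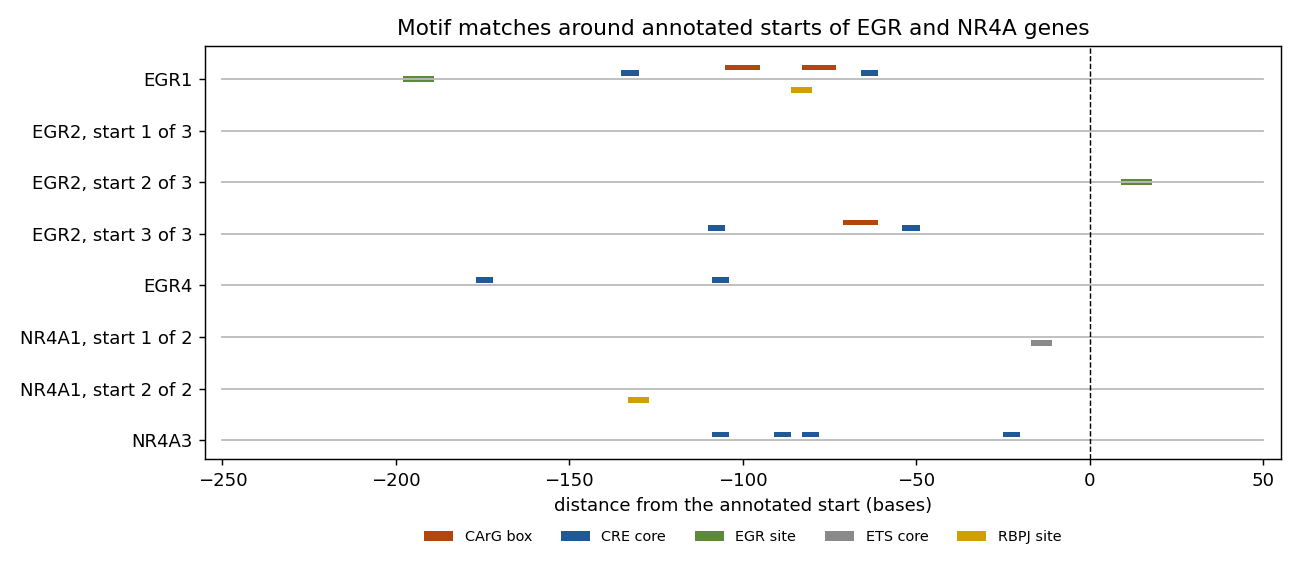
Motif matches in the 8 windows from 250 bases before to 50 bases after annotated starts, with distance from the start in bases on the x axis and 1 row per start. EGR1 and start 3 of EGR2 are the rows with both a CArG box and CRE cores, and NR4A3 carries 4 CRE cores.

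The levels of the 7 genes spanned a wide range. Values are normalised counts, reads per gene divided by the library's size factor. Levels of the 7 genes are compared with each other only per kilobase of annotated exon. In the DMSO 12 h libraries EGR1 was at 174 ± 70.7 per kilobase (SD, n = 3), NR4A2 at 68.5 ± 6.88, NR4A1 at 12.1 ± 0.533, EGR2 at 2.07 ± 1.21, EGR3 at 1.58 ± 0.279, NR4A3 at 1.32 ± 0.431 and EGR4 at 1.16 ± 0.749. The last 4 do not differ from their neighbours in this order beyond their spread. In the GSI 48 h libraries the order of the means was the same, at 1551 ± 847 (SD, n = 3) for EGR1, 106 ± 5.32 for NR4A2, 53.5 ± 7.11 for NR4A1, 30.1 ± 8.74 for EGR2, 15.8 ± 2.73 for EGR3, 2.56 ± 0.754 for NR4A3 and 0.998 ± 0.943 for EGR4. EGR2 and EGR3 there lay above NR4A3 and EGR4 by more than their spread. In between, EGR2 was at 2.11 ± 1.59 per kilobase in the GSI 12 h and 4.19 ± 1.78 in the DMSO 48 h group (SD, n = 3), and EGR3 at 2.66 ± 0.87 and 2.74 ± 0.759. By mean normalised count over all libraries, 60.9% of the genes kept were lower than EGR1, 45% lower than NR4A2, 40.1% lower than NR4A1, 22.2% lower than EGR2, 19.1% lower than EGR3 and 6.65% lower than NR4A3. These shares are not corrected for exon length, so they mix length with abundance.

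EGR1, which is induced by growth factors and the T-cell receptor alike, was the most abundant of the 7 and varied widely between libraries of 1 group. In libraries 1, 2 and 3 its normalised count was 778, 526 and 336 in the DMSO 12 h group and 2806, 492 and 929 in the GSI 12 h group. At 48 h it was 1684, 738 and 1165 in the DMSO group and 7869, 2821 and 3906 in the GSI group. At 12 h the groups overlapped, and the GSI library numbered 2 lay below 2 of the 3 DMSO libraries. At 48 h every library labelled GSI lay above every library labelled DMSO, and also above the 6 libraries of 12 h. The library numbered 1 was the highest in all 4 groups, and the highest value of a group was from 2.28 to 5.70 times the lowest.

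EGR2, a partner of EGR3 in T-cell tolerance, was rare in 3 groups and clearly detected in the fourth. Its normalised count was 12.4, 6.99 and 3.54 in the DMSO 12 h group and 12.6, 1.27 and 9.4 in the GSI 12 h group. It was 23, 11 and 12.3 in the DMSO 48 h group and 113, 77.9 and 142 in the GSI 48 h group. The lowest of the GSI 48 h libraries was thus above 3 times the highest of any other group. In reads, 25, 21, 57 and 301 were recovered over the 3 libraries of the DMSO 12 h, GSI 12 h, DMSO 48 h and GSI 48 h groups, with exact 95% Poisson intervals of 16.2 to 36.9, 13 to 32.1, 43.2 to 73.9 and 268 to 337. The value in number 2 of GSI 12 h stands for 1 read. Such intervals cover counting error only, since reads without molecular identifiers are not independent molecules.

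EGR3, which acts beside EGR2 and has much the same DNA-binding domain, stayed low until 48 h with the GSI label. Its normalised count was 6.19, 7.99 and 8.84 in the DMSO 12 h group and 15.5, 15.2 and 8.06 in the GSI 12 h group. At 48 h it was 9.52, 16.9 and 13.5 in the DMSO group and 62.4, 88.3 and 79.8 in the GSI group. The GSI 48 h values stood apart from the other 9, and unlike EGR1 and EGR2 the library numbered 2 was the highest of them. The groups rest on 25, 34, 50 and 228 reads in the same order.

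EGR4, known mainly from neurons and germ cells, was at the edge of detection. Its normalised count was 4.42, 3 and 0.884 in the DMSO 12 h group, 2.92, 1.27 and 5.37 in the GSI 12 h group, 2.38, 3.9 and 1.12 in the DMSO 48 h group and 0, 4.45 and 2.66 in the GSI 48 h group. Read totals per group were 9, 8, 10 and 8, and the 95% Poisson intervals of the GSI 48 h and DMSO 48 h totals, 3.45 to 15.8 and 4.8 to 18.4, overlapped almost entirely. A difference in EGR4 was not detectable at this depth, and it entered no fit.

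NR4A1, the receptor most used as a reporter of T-cell receptor signalling, had narrow groups. Its normalised count was 85.8, 92.9 and 86.6 in the DMSO 12 h group and 259, 159 and 227 in the GSI 12 h group. It was 106, 76 and 111 in the DMSO 48 h group and 387, 341 and 444 in the GSI 48 h group. At both times the GSI libraries lay above all 6 DMSO libraries, and all GSI 48 h values lay above all GSI 12 h values. The DMSO groups of 12 and 48 h overlapped.

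NR4A2, best known from dopamine neurons and also induced in activated T cells, varied least. Its normalised count was 293, 241 and 281 in the DMSO 12 h group and 333, 310 and 347 in the GSI 12 h group. It was 408, 371 and 416 in the DMSO 48 h group and 435, 395 and 426 in the GSI 48 h group. The highest of the 12 libraries was 1.81 times the lowest. Here the time labels separated the libraries, with all 6 values of 48 h above all 6 of 12 h, and the treatment labels separated them at 12 h but not at 48 h.

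NR4A3, the closest relative of NR4A1 in thymocyte death, was rare throughout. Its normalised count was 10.6, 8.99 and 5.3 in the DMSO 12 h group, 9.72, 5.06 and 10.7 in the GSI 12 h group, 19, 15.6 and 3.37 in the DMSO 48 h group and 15.3, 11.9 and 21.3 in the GSI 48 h group. Treatment groups overlapped at both times. The read totals were 27, 22, 51 and 44.

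**Figure D2:**
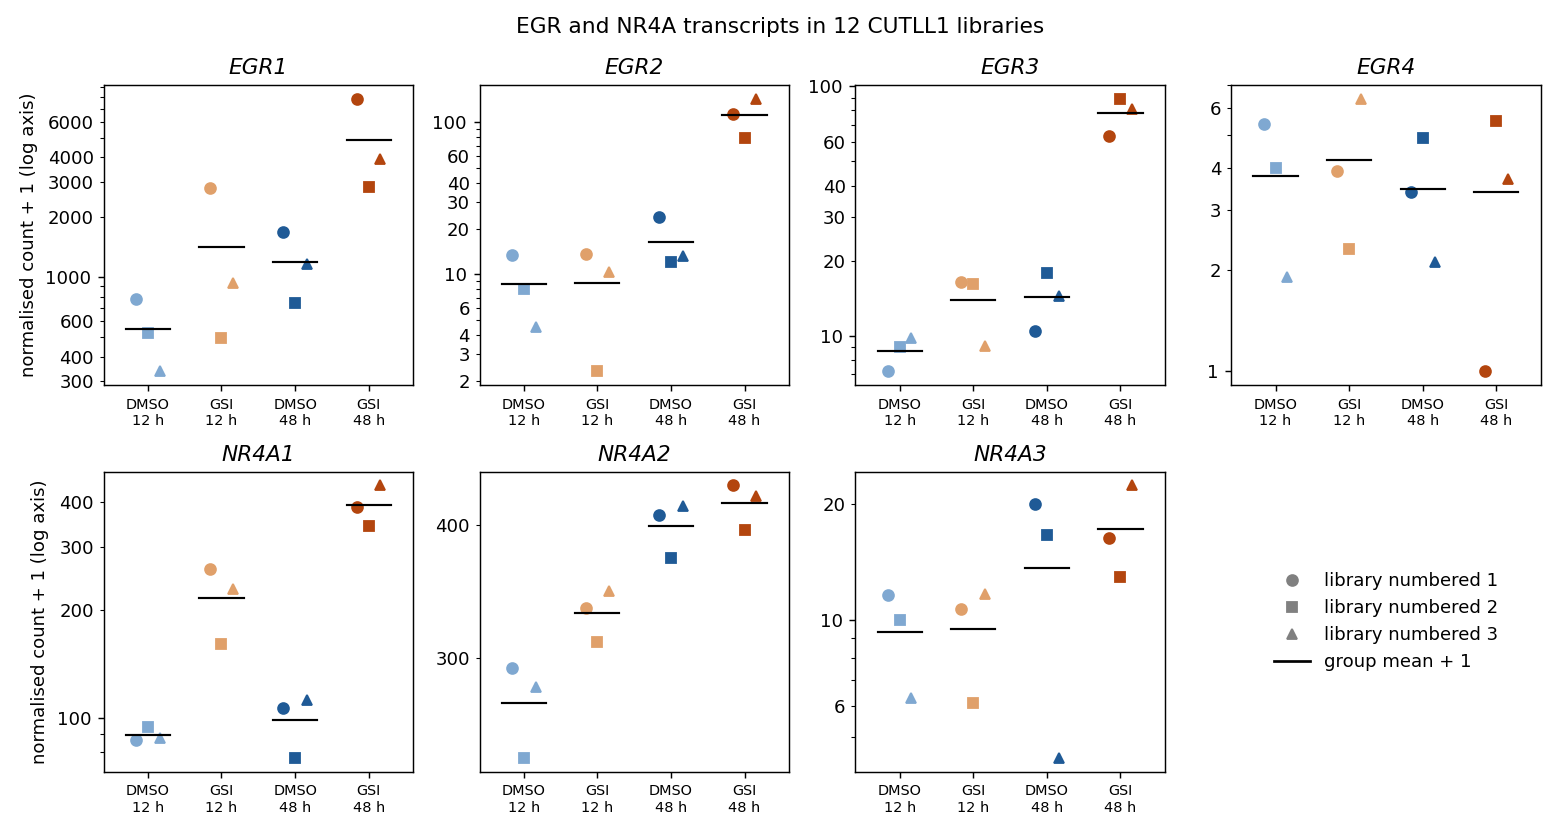
Normalised count plus 1 on a log axis for the 7 genes in the 4 groups, with 1 point per library (the shape gives its number) and a bar at the group mean plus 1. The 3 GSI 48 h libraries of EGR1, EGR2, EGR3 and NR4A1 sit above the other 9 libraries, while the groups of EGR4 all overlap and those of NR4A3 overlap between the labels at each time.

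Put together, 4 of the 6 genes kept (EGR1, EGR2, EGR3 and NR4A1) had all GSI 48 h libraries above the other 9, which held for 615 of the 19281 genes (3.19%). The spread of a gene over the 12 libraries, as the root mean square of log2(value + 1) around its mean, was 1.74 for EGR2, 1.32 for EGR1, 1.24 for EGR3, 0.89 for NR4A1, 0.69 for NR4A3 and 0.26 for NR4A2. For EGR1, EGR2, EGR3 and NR4A1 at least 95.6% of genes had a smaller spread, and for NR4A2 44.8% had. The genes were singled out with differences between these libraries in view, so nothing is read from either comparison with all genes. In bulk RNA, fewer cells that make a transcript and less transcript per cell cannot be told apart.

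Differences between groups come from limma on log2(value + 1), with all 12 libraries in 1 fit, and SE is the moderated standard error. A gene is called when its Benjamini-Hochberg adjusted p over the 19281 genes is under 0.05. At 48 h, GSI against DMSO labels, 4 of the 6 genes were called higher and 0 lower, where 4.33% of all genes were called higher and 9.68% in either direction. EGR2 differed most, by 2.80 ± 0.60 (log2 ± SE; 6.95-fold), with means of 15.5 ± 6.56 and 111 ± 32.2 (SD, n = 3). EGR3 differed by 2.46 ± 0.33 (5.52-fold), from 13.3 ± 3.69 to 76.8 ± 13.2 (SD, n = 3). NR4A1 differed by 2.0 ± 0.21 (4-fold), from 97.5 ± 18.9 to 391 ± 51.9 (SD, n = 3). EGR1 differed by 1.97 ± 0.55 (3.91-fold), from 1196 ± 474 to 4866 ± 2657 (SD, n = 3). NR4A3 (0.56 ± 0.53) and NR4A2 (0.07 ± 0.13) were not called, with overlapping groups, and without number 3 of DMSO 48 h NR4A3 differed by -0.13. Groups that do not overlap, as in these 4, were found for 35.4% of all genes in either direction and 16.9% upward. Since the same contrast was in view when the genes were singled out, nothing is read from the count.

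The calls differed in how much they rested on single libraries. Those of EGR3 and NR4A1 at 48 h stood under all 21 alternatives run, with differences of 1.90 to 2.64 and 1.83 to 2.10. EGR2 was not called without number 1 (3.10) or 2 (2.61) of DMSO 48 h, or number 1 (2.76) or 3 (2.60) of GSI 48 h. EGR1 was not called without number 1 (2.25), 2 (1.66) or 3 (1.99) of DMSO 48 h, number 1 (1.55) or 3 (2.06) of GSI 48 h, or without the filter on low values. No alternative changed the sign of these 4 differences. With the library number as a block, the same 4 genes were called.

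At 12 h, 1 of the 6 genes was called higher and 0 lower, where 10.1% of all genes were called higher and 21.5% in either direction. That gene was NR4A1, at 1.24 ± 0.21, from 88.5 ± 3.89 to 215 ± 50.6 (SD, n = 3), called under all 21 alternatives. EGR1 differed by 1.07 ± 0.55, from 547 ± 222 to 1409 ± 1229 (SD, n = 3), and EGR3 by 0.64 ± 0.33, and neither was called. NR4A2 differed by 0.28 ± 0.13 with groups that did not overlap, as for 17.1% of all genes in the upward direction, and was not called. EGR2 (-0.20 ± 0.60) and NR4A3 (0.02 ± 0.53) were not called, and neither direction was stable over the alternatives, which gave -0.69 to 0.60 for EGR2 and -0.24 to 0.32 for NR4A3. Without number 2 of GSI 12 h, EGR2 differed by 0.60 and NR4A3 by 0.32, and without number 1 by -0.69 and -0.09. The difference in EGR1 rested on single libraries: it was 0.39 and not called without number 1 of GSI 12 h, the highest of its group, and 1.64 and called without number 2, the lowest.

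Whether the treatment difference was larger at 48 h than at 12 h was tested as an interaction. The difference of the differences was 2.99 ± 0.85 for EGR2, 1.82 ± 0.46 for EGR3, 0.89 ± 0.77 for EGR1, 0.76 ± 0.30 for NR4A1, 0.54 ± 0.75 for NR4A3 and -0.21 ± 0.18 for NR4A2. None was called. Limma called 0 of 19281 genes here, with 875 at an unadjusted p under 0.05, while edgeR called 0 and DESeq2 61. With a block for the library number within each treatment label, a setting added after the data were seen, EGR2 and EGR3 were called. The gain in EGR1, EGR2, EGR3 and NR4A1 from 12 to 48 h is therefore not shown to differ between the labels by the test without a block.

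Over time in the libraries labelled DMSO, 1 of the 6 genes was called higher, where 2.03% of all genes were called higher and 4.53% in either direction. NR4A2 differed by 0.55 ± 0.13, from 272 ± 27.3 to 399 ± 23.8 (SD, n = 3). It was not called without number 2 (0.47) or 3 (0.58) of DMSO 12 h or number 1 (0.54), 2 (0.60) or 3 (0.52) of DMSO 48 h, or with only the groups compared in the fit (0.55). EGR1 (1.13 ± 0.55), EGR2 (1.00 ± 0.60), EGR3 (0.70 ± 0.33), NR4A3 (0.33 ± 0.53) and NR4A1 (0.12 ± 0.21) were not called, and of these only EGR3 had groups that did not overlap, as 11.2% of all genes had in the upward direction. Libraries of the same number deviated together across time, and with the number as a block 2 genes were called, NR4A2 and EGR1.

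Over time in the libraries labelled GSI, 3 of the 6 genes were called higher, where 1.62% of all genes were called higher and 3.98% in either direction. EGR2 differed by 3.99 ± 0.60 and EGR3 by 2.52 ± 0.33, both called under all 22 alternatives run. NR4A1 differed by 0.88 ± 0.21 and was not called without number 2 (0.68) or 3 (0.93) of GSI 12 h or number 1 (0.88) or 3 (0.78) of GSI 48 h, without both GSI libraries numbered 2 (0.77), or with only the groups compared in the fit (0.88). EGR1 (2.02 ± 0.55), NR4A3 (0.87 ± 0.53) and NR4A2 (0.34 ± 0.13) were not called although their groups did not overlap. That held for 19.9% of all genes, 9.94% upward and 9.91% downward. The difference in EGR1 was 2.71 and called without number 1 of GSI 12 h, and 1.45 and not called without number 2. With the number as a block 5 genes were called, EGR1 and NR4A2 among them. The comparisons over time and between labels share libraries and are not independent of each other. The genes were singled out on results of these libraries, so nothing is read from the counts called over time or at 12 h either.

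**Figure D3:**
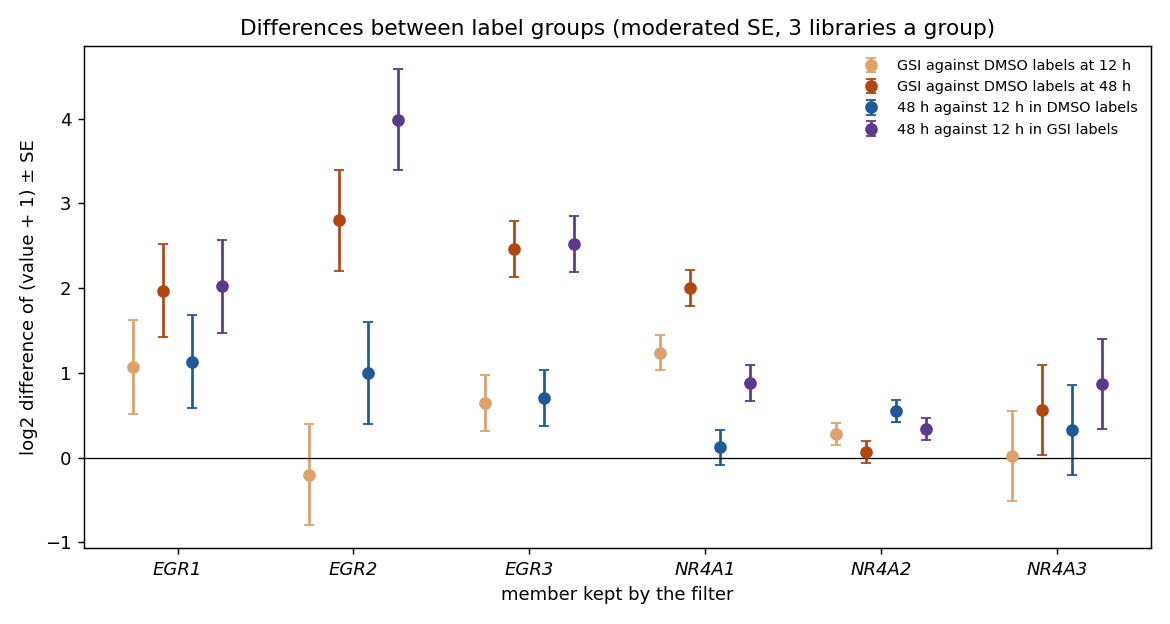
Log2 differences of normalised count plus 1, with the moderated SE as error bars, for the 6 genes kept and 4 comparisons of 3 against 3 libraries. EGR2 spans the widest range, from -0.20 between labels at 12 h to 3.99 over time in the GSI label, and NR4A2 stays within 0.07 to 0.55.

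The genes that switch EGR and NR4A transcription on, restrain them or lie downstream were taken from 10 lists of 105 genes, of which 99 passed the filter. At 48 h, 4 of the 99 rose and 8 fell between labels, with a median log2 difference of -0.05 against 0.00 for all genes. Among all genes 4.33% rose and 5.35% fell. With the deposited values rescaled by the upper quartile, 1220 of all genes rose and 682 fell at 48 h, against 834 and 1032 as deposited, so the balance of directions depends on the scaling. The pathway count was 19 without number 2 of GSI 12 h, 2 without number 1 or 2 of DMSO 48 h or number 1 of GSI 48 h, and 1 without number 3 of GSI 48 h. With the library number as a block it was 36.

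The ERK feedback genes, which ERK activity induces and which then dampen it, were the list with the most falls at 48 h: 4 of 12 fell and 0 rose, with a median of -0.37. SPRY4, a Sprouty inhibitor of RAS signalling, was at 3151, 3769 and 3497 in the DMSO 48 h libraries and at 2183, 2448 and 1984 in the GSI 48 h libraries, and fell by 0.66 ± 0.11 (limma adjusted p = 0.00883). The ERK phosphatase DUSP4 was at 760, 907 and 567 against 406, 433 and 375 and fell by 0.85 ± 0.21 (limma adjusted p = 0.0281). PHLDA1, a pleckstrin-domain protein induced through ERK, fell by 0.99 ± 0.25 (limma adjusted p = 0.0316) and DUSP5, a nuclear ERK phosphatase, by 0.66 ± 0.19 (limma adjusted p = 0.0453). The groups of these 4 genes did not overlap, as for 18.5% of all genes in the downward direction. Their differences lay in the direction opposite to those of EGR1, EGR2 and EGR3. The part of ERK in either was not tested. From 12 to 48 h the mean of SPRY4 went from 2026 to 3472 in the DMSO groups and from 2026 to 2205 in the GSI groups. For DUSP4 it went from 370 to 745 and from 413 to 405. For DUSP5 it went from 264 to 324 and from 199 to 205, and for PHLDA1 from 289 to 341 and from 301 to 167. The interaction was called by limma for 0 of the 12 feedback genes, as for 0 of all 19281 genes. A time course that differs between labels is therefore not shown for them by that test. SPRY4 was not called without number 3 (-0.58) of GSI 48 h, and DUSP4 not without number 1 (-0.83) or 2 (-0.70) of DMSO 48 h or number 1 (-0.86) or 3 (-0.80) of GSI 48 h. PHLDA1 was called under 15 of 21 alternatives. Among others, it lost its call without number 1 (-0.85) or 2 (-0.87) of DMSO 48 h or any of the GSI 48 h libraries (-1.08, -0.90 and -0.99). DUSP5 was called under 11 of 21 alternatives. Among others, it lost its call with upper-quartile scaling and without any 1 of 7 of the 12 libraries, with differences of -0.73 to -0.56. Those 7 were the DMSO 12 h and GSI 12 h libraries numbered 1, all DMSO 48 h libraries and the GSI 48 h libraries numbered 1 and 3. At 12 h none of these 4 was called, and SPRY4 stood at 2026 in both groups. Of the 12 feedback genes 2 rose and 0 fell at 12 h, with a median of -0.05, where 10.1% of all genes rose. SPRY1 rose by 1.19, from a mean of 219 to 507, and was called under 14 of 21 alternatives. ETV5 rose by 0.44, from 4088 to 5504, and was called under 17 of 21.

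In the RAS to ERK cascade itself, 2 of 15 genes rose and 0 fell at 48 h. RASGRP1, the exchange factor that activates RAS downstream of the T-cell receptor, was at 7720, 6509 and 8292 in the DMSO 48 h libraries and at 13397, 12896 and 16717 in the GSI 48 h libraries, a rise of 0.93 ± 0.20 (limma adjusted p = 0.0194). It was not called without number 1 (0.95) or 2 (0.83) of DMSO 48 h or number 1 (0.97) or 3 (0.82) of GSI 48 h. SRF itself fell by 0.33 ± 0.09 (limma adjusted p = 0.0463), from 11586 ± 262 to 9261 ± 809 (SD, n = 3), and lost its call under 10 alternatives, among them without any of the DMSO 48 h libraries (-0.34, -0.31 and -0.33), without number 1 (-0.30) or 3 (-0.28) of GSI 48 h, without number 1 or 3 of DMSO 12 h or number 1 of GSI 12 h (-0.33 each), and with upper-quartile scaling. It was the only one of 6 SRF and cofactor genes called. Of 6 CREB factors and coactivators, 1 fell, ATF1 by 0.46 ± 0.10 (limma adjusted p = 0.0217), and all 6 had negative differences. ATF1 was not called without number 1 (-0.47) or 2 (-0.43) of DMSO 48 h or number 1 (-0.42) or 3 (-0.43) of GSI 48 h. Of the 7 calcineurin and NFAT genes limma called none at 48 h, and their median was -0.10.

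Of 23 other immediate early genes kept, 1 rose and 0 fell at 48 h, with a median of 0.15. BTG2, an antiproliferative gene, was at 4975, 5545 and 4757 against 12745, 7843 and 9572 and rose by 0.96 ± 0.16 (limma adjusted p = 0.00749), a call that stood under all 21 alternatives. FOS, chosen after its values were seen because SRF also drives it, was at 682, 433 and 375 in the DMSO 48 h libraries and at 1575, 398 and 492 in the GSI 48 h libraries. Its groups overlapped and it was not called (0.49 ± 0.44, limma adjusted p = 0.475). The zinc-finger protein ZFP36 differed by 0.56 ± 0.17 without overlap and was not called (limma adjusted p = 0.0519). The EGR corepressors NAB1 and NAB2 were not called either, at -0.30 ± 0.11 and 0.30 ± 0.16 (limma adjusted p = 0.0922 and 0.229).

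Of 18 genes kept from the list downstream of EGR or NR4A factors in T cells, 0 rose and 1 fell at 48 h, with a median of 0.17. The cell-cycle inhibitor CDKN1A, which EGR1 can activate, was at 328, 277 and 231 in the DMSO 48 h libraries and at 113, 194 and 118 in the GSI 48 h libraries. It fell by 1.00 ± 0.26 (limma adjusted p = 0.0339), and lost its call without number 1 (-0.87) or 2 (-1.0) of DMSO 48 h or number 1 (-0.86) or 3 (-0.89) of GSI 48 h. IKZF2, the gene of the T-cell factor Helios, did not overlap between groups and was not called (0.40 ± 0.13, limma adjusted p = 0.0688).

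At 12 h, 15 of the 99 pathway genes rose and 14 fell, with a median of 0.03 against 0.00 for all genes, of which 10.1% rose and 11.4% fell. With upper-quartile scaling 2536 of all genes rose and 1585 fell at 12 h, against 1943 and 2201 as deposited. The count of 29 was 11 without number 2 of DMSO 12 h or number 1 of GSI 12 h, and 14 without number 3 of GSI 12 h. Other immediate early genes supplied 5 rises and 2 falls of 23, with a median of 0.24. BTG2 rose by 0.83 ± 0.16 (limma adjusted p = 0.00492), under all 21 alternatives. JUN, a subunit of AP-1, was at 1360, 1492 and 1366 in the DMSO libraries and at 2844, 1759 and 4715 in the GSI libraries, and rose by 1.03 ± 0.27 (limma adjusted p = 0.0192). It was not called without number 2 (1.07) of DMSO 12 h or number 1 (1.04) or 3 (0.67) of GSI 12 h. In the GSI 12 h group the library numbered 2 was the lowest for JUN and BTG2, as it was for EGR1, EGR2, NR4A1, NR4A2 and NR4A3.

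The signalling genes upstream moved in both directions at 12 h. Of 15 genes of the RAS to ERK cascade, 4 rose and 4 fell. MAPK3, which encodes ERK1, was at 6230, 5398 and 6660 in the DMSO libraries and at 9701, 9852 and 10243 in the GSI libraries, and rose by 0.71 ± 0.10 (limma adjusted p = 0.00209). The ERK kinase genes MAP2K2 and MAP2K1 rose by 0.54 ± 0.12 and 0.39 ± 0.09 (limma adjusted p = 0.00831 and 0.0112). SOS1, among the 4 that fell, went from 6767 ± 427 to 5156 ± 349 (SD, n = 3), a difference of -0.39. It was not called without number 2 (-0.34) of DMSO 12 h or number 3 (-0.34) of GSI 12 h. SRF was at 14027, 15263 and 13421 against 10017, 11964 and 9886 and fell by 0.43 ± 0.09 (limma adjusted p = 0.0092), with 3 of 6 genes of its list falling and 0 rising. NFATC3, a calcineurin-controlled factor, fell by 0.32 ± 0.07 (limma adjusted p = 0.00822). ATF1 fell by 0.46 ± 0.10 (limma adjusted p = 0.00978), a call lost without number 1 (-0.38) of GSI 12 h. Of the 18 downstream genes 3 rose and 2 fell. CDKN1A was among those that fell, by 0.91. It was not called without number 1 (-0.75) or 2 (-0.86) of DMSO 12 h or number 1 (-0.78) or 3 (-0.86) of GSI 12 h. IKZF2 rose by 0.58 ± 0.13 (limma adjusted p = 0.0104) and was not called without number 1 (0.48) of GSI 12 h, while the exhaustion factor TOX rose by 0.54 ± 0.13 (limma adjusted p = 0.0128) and was not called without number 2 (0.41) of DMSO 12 h or number 3 (0.44) of GSI 12 h.

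**Figure D4:**
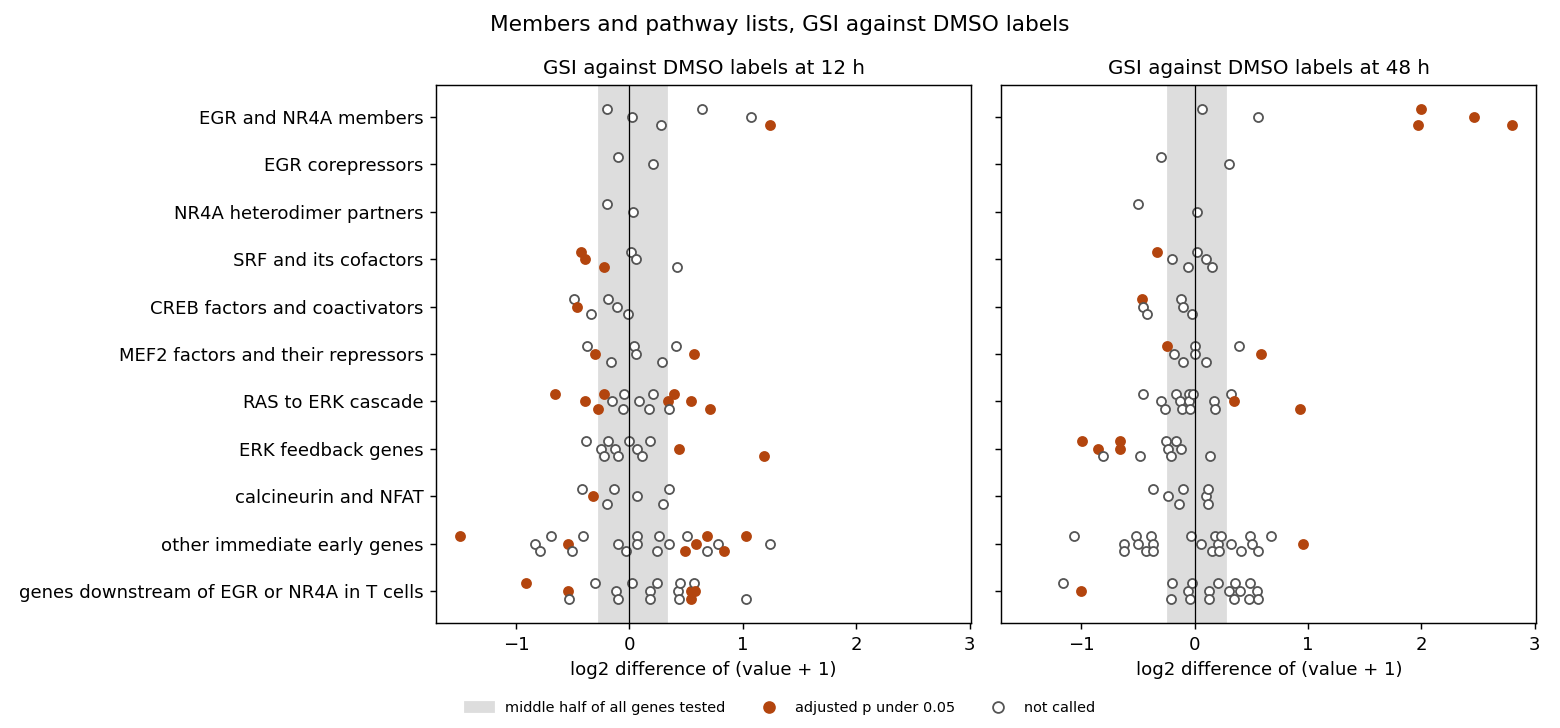
Log2 differences of GSI from DMSO libraries at 12 h and 48 h for the 6 genes kept and for the genes of 10 pathway lists, 1 point per gene, filled where the limma adjusted p is under 0.05. The grey band runs from the lower to the upper quartile of all genes tested. At 48 h 4 of the 6 genes lie at 1.97 or above, and the 4 filled ERK feedback genes lie to the left of 0.

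Over time in the libraries labelled DMSO, 17 of the 99 pathway genes rose and 3 fell, with a median of 0.12, where 2.03% of all genes rose and 2.51% fell. The count of 20 was 8 to 10 without number 2 or 3 of DMSO 12 h or any of the DMSO 48 h libraries. The ERK feedback genes rose in 4 of 12 cases, among them the ETS factor ETV5 by 1.18 ± 0.13 (limma adjusted p = 0.000182) and SPRY4 by 0.78 ± 0.11 (limma adjusted p = 0.00144). RASGRP1 rose by 1.29 ± 0.20 (limma adjusted p = 0.00232) and BTG2 by 1.03 ± 0.16 (limma adjusted p = 0.00216). Downstream genes rose in 5 of 18 cases, among them TOX by 0.94 ± 0.13 and TOX2 by 1.36 ± 0.20 (limma adjusted p = 0.00129 and 0.00149). EGR1, EGR2 and EGR3 were not called in the same comparison without the block.

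In the libraries labelled GSI, 10 pathway genes rose and 4 fell over time, with a median of 0.04, where 1.62% of all genes rose and 2.37% fell. The count was 8 without number 1 of GSI 12 h and 9 without number 3 of GSI 48 h, and with the library number as a block it was 25. RASGRP1 rose by 1.87 ± 0.20 (limma adjusted p = 0.00011), from 3955 ± 865 to 14337 ± 2077 (SD, n = 3). TRIB1, a pseudokinase gene that is also an early response gene, rose by 2.34 ± 0.28 (limma adjusted p = 0.000266), from 20.6 ± 2.76 to 109 ± 15.3 (SD, n = 3). TOX2 rose by 1.40 ± 0.20 and PDCD1, which encodes the inhibitory receptor PD-1, by 0.95 ± 0.17 (limma adjusted p = 0.00094 and 0.00492). RXRA, a partner with which NR4A1 and NR4A2 can pair, fell by 0.90 ± 0.16 (limma adjusted p = 0.00476).

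The genes whose pattern over the 12 libraries lay nearest to each member were listed by the root mean square difference of centred log2(value + 1), among 14589 other genes with a symbol and a mean of at least 20 (14590 for NR4A3). Nearest to EGR1 were TRAJ8 (0.52), DPEP1 (0.52) and TRAJ28 (0.55). Nearest to EGR2 were the keratin gene KRT1 (0.67), TRAV8-2 (0.72) and TRAV13-1 (0.82). TRAJ and TRAV names are joining and variable segments of the T-cell receptor alpha locus, and these values are uncertain because reads may be divided among very similar segments. The mean of TRAJ8 ran from 23.7 in the DMSO 12 h group through 56.9 in the GSI 12 h and 58.3 in the DMSO 48 h group to 137 in the GSI 48 h group.

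Nearest to EGR3 were the transcription factor SOX5 (0.45), the pseudogene THA1P (0.58) and PTGDR2, a prostaglandin D2 receptor gene (0.61). SOX5 went from 320 ± 153 to 1612 ± 236 (SD, n = 3) between labels at 48 h, and its 3 GSI 48 h values of 1358, 1653 and 1825 stood above the other 9, as those of EGR3 did. Nearest to NR4A1 were TEC, a kinase of T-cell receptor signalling (0.30), the protease PCSK4 (0.32) and SPEG (0.32). TEC was at 78.7, 97.9 and 85.8 in the DMSO 12 h libraries, 268, 177 and 243 in the GSI 12 h, 105, 137 and 104 in the DMSO 48 h and 374, 236 and 387 in the GSI 48 h libraries. Nearest to NR4A2 were PRKCQ, the protein kinase C of the T-cell synapse (0.07), PLEKHA5 (0.07) and the nuclear receptor coactivator NCOA2 (0.09), and nearest to NR4A3 were MFGE8 (0.35), BMF (0.40) and MCC (0.41). A gene with a small spread of its own, such as NR4A2 at 0.26, has small distances to many genes.

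Among the members themselves the smallest distances were 0.63 between NR4A2 and NR4A3 and 0.74 between EGR3 and NR4A1, and the largest was 1.57 between EGR2 and NR4A2. EGR1 and EGR2 were 0.82 apart. In every pair the distance was at least that of the third nearest gene of either member.

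**Figure D5:**
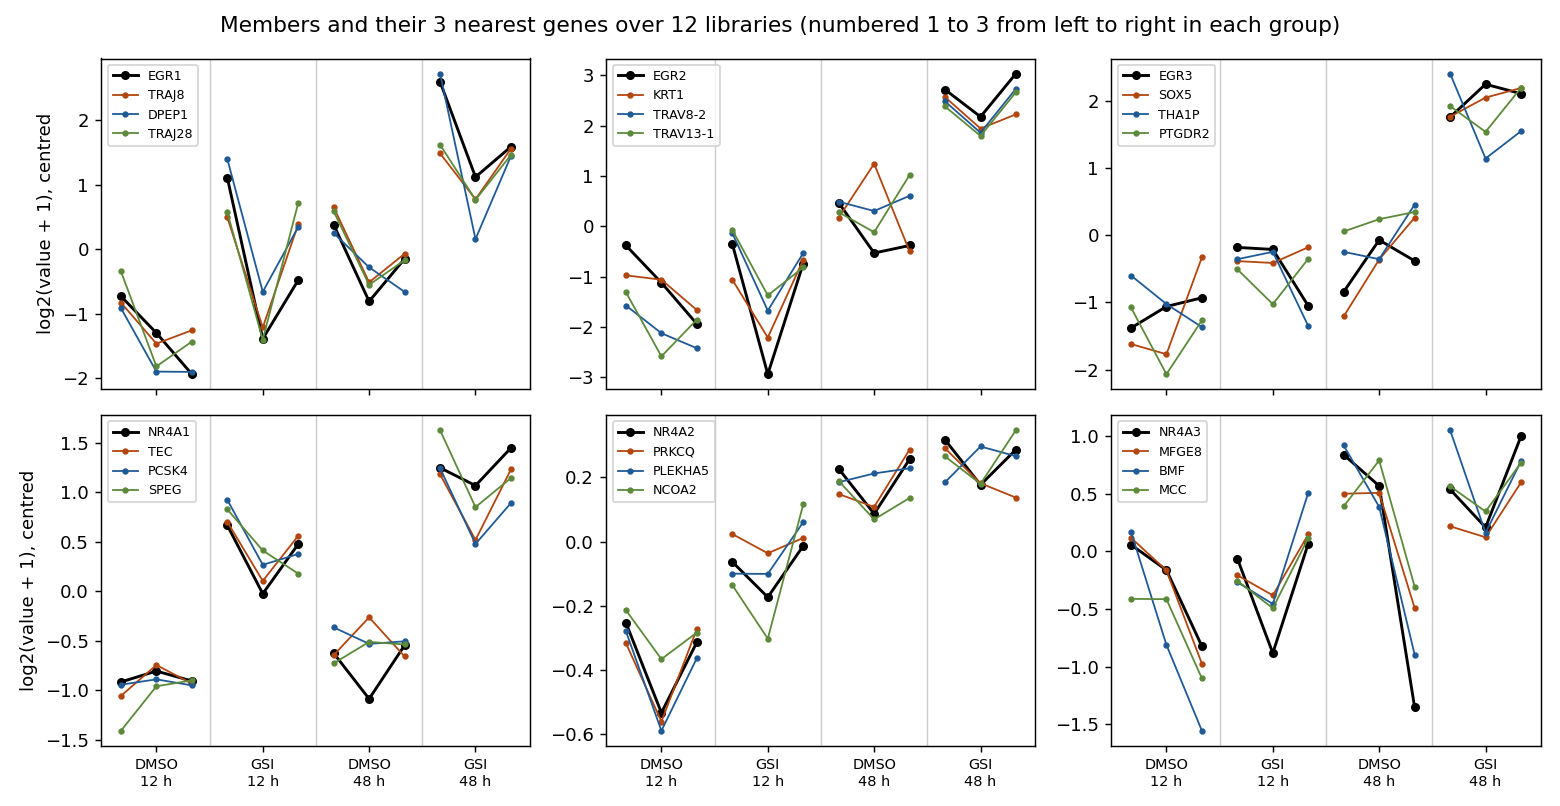
Centred log2(value + 1) of each member kept (black) and its 3 nearest genes (colours) in the 12 libraries, numbered 1 to 3 from left to right in each group. NR4A1 and TEC are high in both GSI groups, while EGR2, EGR3 and their neighbours are high in the GSI 48 h group.

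Other measures moved with the same labels. The summed normalised count of 15 hypoxia response genes was 48422 to 50800 in the DMSO 12 h libraries and 264830, 108865 and 296584 in the GSI 12 h libraries, and 48276 to 57871 against 200659, 74815 and 183154 at 48 h. Of the 15 genes, 14 rose at 12 h and 10 at 48 h, with medians of 2.74 and 1.62. The library numbered 2 had the lowest sum in both GSI groups, as it had the lowest EGR1, EGR2, NR4A1, NR4A2 and NR4A3 value in both, but EGR3 was not lowest there. Without both GSI libraries numbered 2, the differences at 48 h were 2.29 for EGR1, 3.03 for EGR2, 2.36 for EGR3 and 2.10 for NR4A1. The part of this response in the member differences was not tested.

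The label check by 16 NOTCH1 target genes was incomplete. Their summed normalised count was 539433 to 586668 in the DMSO 12 h libraries, 389457 to 473849 in the GSI 12 h, 312390 to 322371 in the DMSO 48 h and 241040 to 301067 in the GSI 48 h libraries. Of the 16, 7 fell between labels at 12 h and 3 at 48 h, while 11 and 12 fell over time in the DMSO and GSI labels. All differences between treatments here are therefore between libraries labelled GSI and libraries labelled DMSO. The 8 T-lineage markers were high in every library, with CD3D at 58190 to 115361. Their sum was lower in the GSI libraries at both times. It was 283543 to 333085 (DMSO) and 243900 to 273031 (GSI) at 12 h, and 260746 to 308166 and 229388 to 245303 at 48 h. Of the 8, 2 were called lower at 12 h and 1 at 48 h, and 0 higher. Among all genes 11.4% and 5.35% were called lower. The erythroid sum of 4 markers (HBA1, HBB, ALAS2 and KLF1) was 6.19 to 13.3, 20.2 to 44.7, 7.93 to 13.6 and 26 to 62.5 in the DMSO 12 h, GSI 12 h, DMSO 48 h and GSI 48 h libraries. HBA1 was at 2.69 or less and HBB at 0.742 or less, while ALAS2 was at 3.37 to 43.3 and KLF1 at 0.885 to 27.9. ALAS2, the 1 erythroid marker kept, was called higher without overlap at 12 h (1.65) and 48 h (2.13). Among all genes, 10.1% and 4.33% were called higher and 17.1% and 16.9% did not overlap upward. The part of the erythroid markers in the member differences was not tested. Of 6 B-lineage markers 5 were under 10 in every library, with MS4A1 at 0 in all 12, but CD79A was at 659 to 3042. The B-lineage sum was 662 to 2515, 850 to 1098, 808 to 3045 and 853 to 936 in the same order of groups. Of 6 myeloid markers 2 were under 10 in every library, with MPO at 1.3 or less, while ITGAM was at 160 to 490 and CD14 at 9.4 to 33.6. The myeloid sum was 402 to 556, 218 to 459, 271 to 390 and 215 to 247. At 48 h the group means were 1948 (DMSO) and 900 (GSI) for CD79A and 294 and 177 for ITGAM, whose groups did not overlap, and neither was called. Of 5 fibroblast markers 3 were under 10 in every library, with COL1A2 at 1.48 or less, while DCN reached 32.5, and their sum was 8.99 to 23, 11.4 to 34.9, 9.74 to 43.6 and 7.98 to 25.5. The part of these lists in the member differences was not tested. Depth was 73939612 to 160702764 recovered reads per library, with lower means in the GSI groups (86037870 ± 13619899 and 93986428 ± 34457594 at 12 and 48 h, SD, n = 3) than in the DMSO groups (115899123 ± 6442725 and 127001043 ± 32975239).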

How the data were processed

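Poly-A RNA was sequenced in 12 CUTLL1 libraries, 3 for each pair of treatment and time label. Tools named in the submitters' processing notes are TopHat2 2.0.10, HTSeq 0.6.1, DESeq2 (version not listed) and FastQC 0.10.1, with hg19 as the genome build. Their order, their settings and any use of strand are not stated there, so reads of overlapping or antisense genes cannot be told apart. What the authors deposited is a signal: the reads of a gene over the size factor of its library. Whole reads were recovered from the steps between values, and 100% of values were whole within 0.01.

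A symbol was found for 39007 of 62069 identifiers, and for 16495 of the 19281 that passed the filter (at least 10 in at least 3 libraries). Tests were run in R 4.3.3 with limma 3.58.1 on log2(value + 1), using a trended prior and no replicate term, with Benjamini-Hochberg adjustment over all genes kept and a threshold of 0.05. The fold scale understates changes of low genes. Members and lists were chosen with earlier results of these data known. From each pathway list the genes named were up to 4 called ones of smallest p and 2 not called per treatment comparison, and up to 2 of smallest p over time. Others are said to be outside this rule. A marker of the erythroid list is not reported here. The fit was tested on simulated data. Levels per kilobase use exon lengths of GENCODE 29, a later build than hg19, and promoter windows are from RefSeq GRCh38.p14. The text prints no coordinates on hg19.

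Same-numbered libraries were checked for shared deviations from their group means over all genes kept. The correlations were 0.578, 0.612 and 0.545 across time in DMSO, 0.400, 0.545 and 0.466 across time in GSI, and 0.103, 0.157 and 0.104 between labels at 48 h. All are over 0.1, the cut used here, so the number was taken to pair these libraries. Between labels the values at 48 h lay near the cut, and those at 12 h (0.096, 0.272 and 0.068) lay on both sides of it. The cut therefore does not clearly set the 2 times apart. The main fit leaves the pairing out, also across time. Alternatives were edgeR 4.0.16 and DESeq2 1.42.0 on recovered reads, a pseudocount of 10, no filter or a filter of 50, upper-quartile scaling, the replicate block, only the groups compared, and each library or both GSI libraries numbered 2 left out. A replicate block within each treatment label was added after the data were seen.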

Additional observations from a re-analysis of the deposited data

Results flagged for a closer look

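MAP2K1, which encodes the ERK kinase MEK1, differed in opposite directions between the labels at 12 and 48 h. At 12 h it was at 6919, 7337 and 6988 in the DMSO libraries and at 9258, 8229 and 10555 in the GSI libraries. At 48 h it was at 8282, 9015 and 8342 in the DMSO libraries and at 7870, 7467 and 8069 in the GSI libraries. Every GSI library was thus above every DMSO library at 12 h (log2 difference 0.39) and below it at 48 h (-0.13). The difference between the 2 effects was -0.52 ± 0.13 and was not called (limma adjusted p = 0.433).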

How the results depend on the processing

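No alternative reversed the sign of a called difference. Among the differences of single members, 602 results kept their side of the threshold, 22 lost a call and 13 gained one. Depth limits EGR4, EGR2, EGR3 and NR4A3, with totals of 8 to 57 reads in most groups. Counts are given as members, pathway genes and all genes called (1, 29 and 4144 between labels at 12 h; 4, 12 and 1866 at 48 h; 1, 20 and 874 over time in DMSO; 3, 14 and 768 over time in GSI; 0 members and 0 genes for the interaction). DESeq2 called 23 pathway genes and 3242 genes at 48 h, 1560 genes over time in DMSO, 1261 in GSI and 61 for the interaction. Without both GSI libraries numbered 2, 2 members were called at 12 h (EGR1 added), 24 pathway genes and 4042 genes at 48 h, 2 members (NR4A1 lost), 9 pathway genes and 427 genes over time in GSI, and 1 gene for the interaction. Without a filter, 19 pathway genes were called at 12 h, 7 at 48 h and 12 over time in DMSO, and 1075 genes at 48 h. With only the groups compared in the fit, 2607 genes were called at 12 h, 21 pathway genes at 48 h, 0 members over time in DMSO, and 2 members (NR4A1 lost), 9 pathway genes and 477 genes over time in GSI; the interaction has no such fit. The cause of these shifts was not tested.

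With the replicate block, 3 members, 45 pathway genes and 6951 genes were called at 12 h, where correlations of same-numbered libraries were 0.096, 0.272 and 0.068 and the number was not taken to pair them. The block gave 36 pathway genes and 5261 genes at 48 h, 2 members and 2368 genes over time in DMSO, 5 members, 25 pathway genes and 1941 genes over time in GSI, and 40 genes for the interaction. The replicate block within treatment gave 2 and 5 members, 52 and 52 pathway genes and 5622 and 5544 genes over time in DMSO and GSI, and 2 members and 1177 genes for the interaction. Leaving out each library in turn gave 1 to 2 members, 11 to 37 pathway genes and 1599 to 5662 genes at 12 h, and 2 to 4, 1 to 19 and 119 to 3036 at 48 h. Over time it gave 0 to 1, 8 to 21 and 353 to 1066 in DMSO and 2 to 4, 8 to 14 and 443 to 737 in GSI, and 0 to 4 genes for the interaction.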
